A study of Arabidopsis thaliana with 9 samples.

Results

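The comparison set pistils of Arabidopsis thaliana that carried growing wild-type pollen tubes against pistils that had not been pollinated. It used 6 of the 9 arrays of the study, chosen by their titles: 3 of unpollinated pistils and 3 of pistils taken 8 hours after wild-type pollen was applied. All pistils came from plants of the Ler-0 ecotype with the ms1 (Male sterile 1) genotype, which shed no functional pollen, and were at stage 14, with 100 pistils in each collection. The pollen came from Col-0 plants, so the pollinated samples hold RNA of a second ecotype, and pollination was done at 9 am. The collection time of the unpollinated pistils was not given, so time of day and time since pollination cannot be told apart from pollination itself. The remaining 3 arrays came from pistils given pollen that lacks MYB97, MYB101 and MYB120 (a triple mutant) for 8 hours. None of these 3 genes was measured by a probe set that lists 1 gene, so the mutant label was not checked here. The mutant arrays entered the estimate of the spread and are cited where a gene differed between both kinds of pollen.

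Pollen grains land on the stigma, germinate, and send tubes through the transmitting tract of the style and ovary towards the ovules. A tube grows at its tip by secreting wall material and peptides, and it takes sugars and other nutrients from the pistil, while the pistil adjusts its own walls, hormones and metabolism as tubes pass and the flower ages. RNA was extracted from whole pistils with the tubes inside them, so a transcript cannot be assigned to tube or pistil, and fewer cells of a type cannot be told apart from less RNA per cell.

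Levels are log2 of the deposited array intensity for a probe set, a group of short probes that read 1 transcript. Differences are the wild-type pollen mean minus the unpollinated mean on the log2 scale, given with the standard error (SE) of a limma fit and n = 3 arrays per group. The threshold for passing was an adjusted p (Benjamini-Hochberg) below 0.05 across the 22746 probe sets tested, and "rose" and "fell" are used for passing probe sets alone. Of all probe sets, 43.6% passed, 23.4% higher and 20.2% lower, and 52.8% had no overlap between the groups, so a class with about that share of passing members does not stand apart from the array as a whole. A named gene is 1 of 13286 genes measured by a probe set that lists no other gene, and 1535 of these have a symbol in the reference annotation. Loci without one are given by their identifier. No detection calls were used, so a low level is not evidence of absence.

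The rises and falls differed most at large sizes. At differences under 0.5 the passing probe sets were nearly even, with 2521 higher and 2425 lower. At differences of at least 1 there were 1025 higher and 625 lower (4.51% and 2.75% of those tested), at least 2 gave 434 higher (1.91%) and 107 lower, at least 3 gave 257 and 40, and at least 5 gave 85 and 3. The split of all calls moved with the scaling. Of the passing probe sets, 53.7% were higher as deposited, 32.2% after each array's median was subtracted and 43.5% after a renewed quantile normalization. The median difference over all probe sets was 0.00 as deposited, and subtracting the array medians moved it by -0.14, so the direction of differences near that size is relative to the scaling. At 3 and above the split stayed between 85.4% and 86.5% higher under all 3 scalings.

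**Figure D1:**
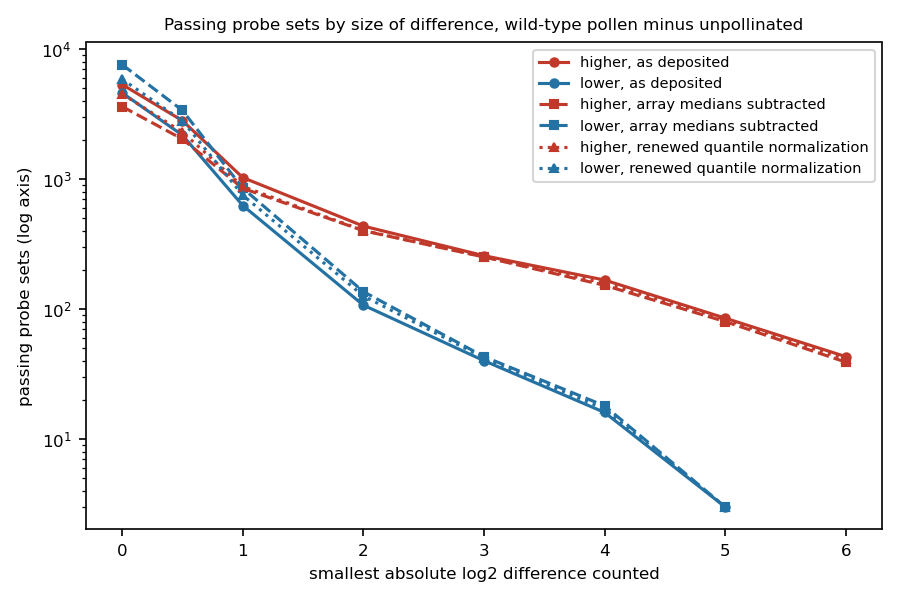
Number of passing probe sets (log axis) at or above each absolute log2 difference, higher in red and lower in blue, under 3 scalings (line and marker style). The order of the lines up to 1 depends on the scaling, and at 3 and above higher calls outnumber lower ones under each scaling (257 against 40 as deposited).

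Replicates were closer to each other after pollination than before. The median SD of a probe set over the 3 arrays was 0.118 before pollination and 0.0933 after it, and 137 against 14 probe sets had an SD above 0.75. Of those 137, unpollinated array 2 was the highest in 102 and array 1 the lowest in 96. Passing calls among them were 59 lower and 10 higher, and array values are given for several of the genes this touches.

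Markers of the pollen vegetative cell separated the groups. The 6 measured of 7 markers summed to intensities of 139.8 to 188.8 in unpollinated arrays and 7050 to 8488 with pollen, and all 6 rose. The 1 measured tapetum marker of 6, AT5G07230, did not pass, with levels of 3.43 to 3.71 in all 6 arrays, but 3 of the 6 measured genes of the wider tapetum and pollen coat list (of 25) rose, by at most 1.35, and their part in the results was not tested. Once array medians were subtracted 2 of these 6 genes rose and 1 fell. The sperm histone gene MGH3, the 1 measured sperm marker of 4, rose by 0.98 ± 0.10 (adjusted p = 3.51e-05). The 2 measured green tissue markers of 3, RCA and LHCB4.2, summed to 14530 to 17340 without and 7845 to 8285 with pollen. The 2 measured pistil markers of 7, SPT and AT3G12000, moved in opposite directions and summed to 406.4 to 622.6 and 211.6 to 225.2. EC1.2, the 1 measured egg cell marker of 4, fell, and no synergid, petal or stamen marker was measured.

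Secreted peptides of the rapid alkalinization factor family, which bind receptor kinases at the cell surface, had members with some of the steepest rises on the array beside members that hardly moved. RALFL26 stood at log2 levels of 4.66, 3.78 and 4.28 in the unpollinated arrays and 10.82, 10.95 and 11.13 with wild-type pollen. RALFL25, whose gene lies next to it on the chromosome, stood at 3.63, 3.66 and 3.54 and then at 8.97, 8.66 and 9.10. In both genes every pollinated array was far above every unpollinated one, a 106-fold difference for RALFL26 (6.73 ± 0.19, adjusted p = 8.23e-10) and 39.5-fold for RALFL25 (5.30 ± 0.11, adjusted p = 9.00e-11). Of the other 8 measured family members, RALFL32 fell by 0.37 ± 0.10 (adjusted p = 0.011) and 7 did not pass, with RALFL33 at -0.48 ± 0.21 and RALFL34 at -0.04 ± 0.09. The family median was -0.09, against 0.00 over all probe sets, and with array medians subtracted 4 members fell.

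Behind the 10 steepest rises, the genes ranked 11 to 30 rose by 5.71 to 6.95, and 17 of these 20 loci have no symbol. AT5G54095 led them at 3.68, 3.67 and 3.68 without pollen and 10.54, 10.61 and 10.71 with it, a 123-fold difference (6.95 ± 0.11, adjusted p = 2.31e-11). AT3G05610 rose by 6.89 ± 0.14, AT5G26700 by 6.81 ± 0.11 and AT5G45880, a pollen marker of the list above, by 6.64 ± 0.13. The others with a symbol were RALFL26, the serine carboxypeptidase-like gene scpl38 (6.54 ± 0.10) and the glycosyl hydrolase gene GH9A4. No overlap between the groups was part of the rule that ranked them. Scpl38 was far from the rest of its family. Of 29 measured carboxypeptidase-like genes 6 rose and 4 fell, with 4 and 6 once array medians were subtracted, SCPL49 by 0.98 ± 0.07 as the next largest rise and scpl31 by -0.95 ± 0.17 as the largest fall, and the family median of 0.05 turned to -0.09 with array medians subtracted.

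The pollen tube lists held few measured genes, and nearly all of them rose. In the signalling list 6 of 7 measured genes (of 37) rose, in the wall list 6 of 6 (of 21), in the cytoskeleton list 5 of 6 (of 19) and in the membrane transport list 2 of 2 (of 14). The receptor-like kinase genes ANX2 and ANX1, which keep the tube from bursting, rose by 5.23 ± 0.11 and 2.94 ± 0.13, and AT1G72460 of the signalling list did not pass (0.09 ± 0.08, adjusted p = 0.403). Cation/H+ exchanger gene CHX21 rose by 0.54 ± 0.09 (adjusted p = 0.000682) and CHX19 by 0.59 ± 0.18 (adjusted p = 0.0239), and CHX19 no longer passed when array medians were subtracted (adjusted p = 0.055), after quantile normalization (0.119) and without either of unpollinated arrays 1 and 2 or any single wild-type array (0.0504 to 0.0803).

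The 5 rises of the cytoskeleton list ran over a wide range of sizes, and its other member, ACT11, fell. PLIM2a, for an actin-bundling LIM protein, rose from 4.3, 3.89 and 4.54 to 9.41, 9.29 and 9.76 (5.24 ± 0.16, adjusted p = 2.03e-09), and its relative PLIM2b from 7.31, 7.02 and 7.62 to 8.28, 8.19 and 8.56 (1.03 ± 0.16, adjusted p = 0.000431). The tubulin genes TUB9 and TUA1 rose by 1.94 ± 0.08 and 1.54 ± 0.13, and the actin genes ACT12 and ACT11 moved apart, by 3.16 ± 0.09 and -0.71 ± 0.18. Of the 10 measured NET genes, whose proteins join actin to membranes, 3 rose and 1 fell, and 2 rose and 3 fell under both other scalings. NET2C rose from 3.42, 3.31 and 3.26 to 4.91, 4.91 and 4.64 (1.49 ± 0.11, adjusted p = 3.09e-06), NET2D rose by 0.80 ± 0.11, and NET3A fell by 0.78 ± 0.11. Genes with large rises that were chosen after their values were seen were PIPK11, for a phosphatidylinositol phosphate kinase (3.99 ± 0.10), the kinase gene cdc2cAt (3.47 ± 0.14), AT59 (5.28 ± 0.13), APPB1 (4.77 ± 0.16) and SP1L4 of the SPIRAL1 microtubule family (1.63 ± 0.15).

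Some genes for proteins that cut or loosen wall polymers rose steeply, while others of their families did not pass. Over all probe sets 23.4% passed as higher and 20.2% as lower. Of 15 measured genes of glycosyl hydrolase family 9, the plant cellulases, 8 rose and none fell (median 0.31), a class split off after the values were seen. With array medians subtracted the count was 6 rises and 3 falls, and after quantile normalization 8 rises and 2 falls, so the smaller members have no settled direction. GH9A4 stood at 3.95, 3.23 and 4.05 without pollen and at 9.43, 9.48 and 9.77 with it. GH9B11 stood at 3.67, 3.75 and 3.85 and then at 8.70, 8.77 and 9.06. Both groups lay far apart in each gene, at 56.2-fold (5.81 ± 0.19, adjusted p = 2.92e-09) and 34-fold (5.09 ± 0.12, adjusted p = 3.27e-10). GH9B12, which neighbours GH9B11, rose by 1.16 ± 0.12, and GH9C2 rose by 0.93 ± 0.14.

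Expansins, which loosen walls without cutting them, included members with strong rises and members that did not pass. Of 10 measured EXPA genes 4 rose, 1 fell and 5 did not pass, and the family median of 0.15 became -0.01 after quantile normalization. EXPA4 rose from 7.79, 7.94 and 7.51 to 10.46, 10.60 and 10.72 (7.19-fold, 2.85 ± 0.14, adjusted p = 8.46e-08). EXPA16 rose from 5.43, 5.38 and 4.96 to 7.68, 8.10 and 7.79 (6.07-fold, 2.60 ± 0.14, adjusted p = 2.11e-07), and with mutant pollen it stood at 7.04, 7.04 and 6.84, below all wild-type arrays and above all unpollinated ones. EXPA15 rose by 0.61 ± 0.13, EXPA8 fell by 0.90 ± 0.19, and EXPA7 (-0.23 ± 0.13) and EXPA20 (0.18 ± 0.15) did not pass. The expansin-like gene EXLA3, chosen after its value was seen, rose by 1.92 ± 0.13. Among 22 measured TBL genes, a family of wall polysaccharide acetyltransferases, 5 rose and 3 fell, with 4 and 7 once array medians were subtracted and 3 and 5 after quantile normalization, from 0.68 ± 0.14 for TBL26 to -0.95 ± 0.13 for TBL38, and the median of 0.01 was negative under both other scalings (-0.13 and -0.07).

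The beta-glucosidase family had large changes both ways, with 7 rises and 5 falls among 20 measured genes, the same counts under all 3 scalings, while its median of 0.01 was -0.12 with array medians subtracted. BGLU45 and BGLU46, neighbours on the chromosome whose enzymes act on the glucosides of lignin precursors, both fell. BGLU45 went from 7.43, 7.22 and 6.80 to 4.38, 4.45 and 4.43 (6.63-fold lower, -2.73 ± 0.14, adjusted p = 1.10e-07) and BGLU46 from 6.05, 6.19 and 6.02 to 3.86, 3.83 and 3.93 (-2.22 ± 0.09, adjusted p = 1.94e-08). No array of one group came near the other group in either gene, but no overlap was part of the rule that ranked BGLU45 among the falls. BGLU36 rose by 2.65 ± 0.24, BGLU44 by 1.44 ± 0.18, and BGLU28 and BGLU15 by 1.77 ± 0.30 and 1.71 ± 0.10. The unpollinated arrays of BGLU28 spread from 6.58 to 7.90 and its pollinated arrays from 8.47 to 9.32.

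**Figure D2:**
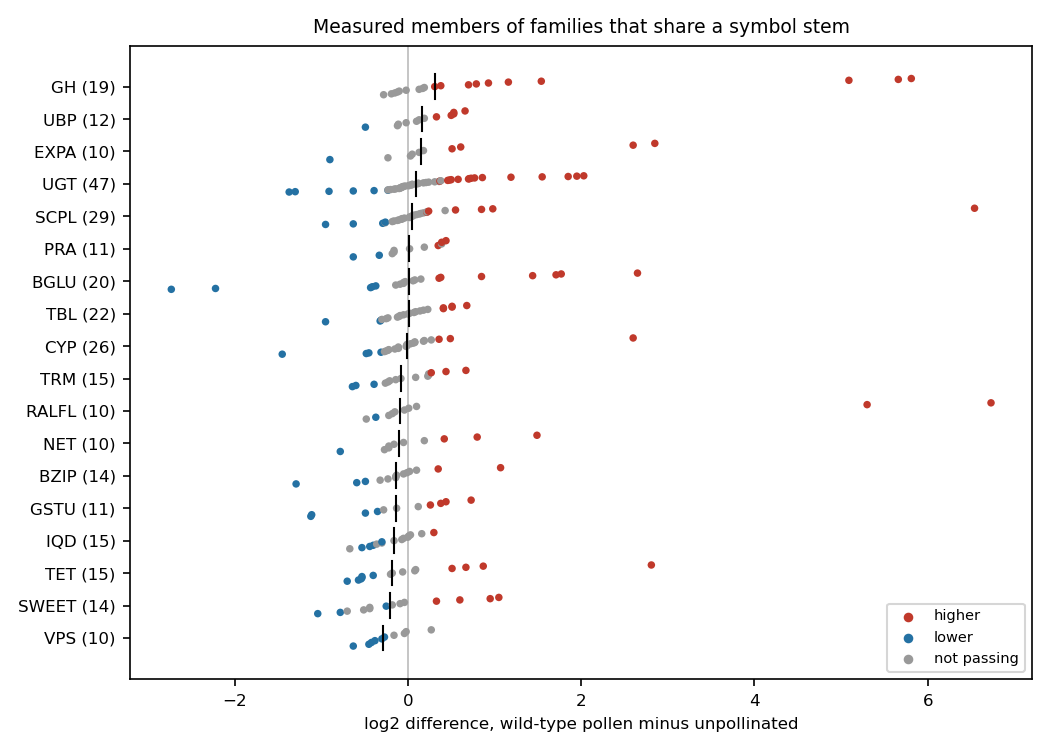
Log2 difference (wild-type pollen minus unpollinated, x axis) of each measured gene in 18 families that share a symbol stem, with the number measured in brackets, the call in colour and the family median as a black bar. The stem GH holds the family 9 cellulases and 4 GH3 auxin-conjugating enzymes. Most family medians lie near 0, while some members of RALFL, SCPL, GH, BGLU, EXPA, TET, CYP and UGT lie beyond 2.

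Genes that build and decorate phenolic compounds rose together. All 5 measured genes of the flavonoid and phenylpropanoid list (of 29) rose, under each of the 3 scalings, with a median of 1.55. DFR, which makes the precursors of anthocyanins from dihydroflavonols, stood at 7.89, 7.89 and 7.79 without pollen and at 9.41, 9.95 and 9.07 with it (3.07-fold, 1.62 ± 0.19, adjusted p = 8.34e-05). CCR2, for a cinnamoyl-CoA reductase of the lignin pathway, rose by 1.64 ± 0.16, UGT78D2, a flavonoid glucosyltransferase gene, by 1.55 ± 0.15, HCT by 0.59 ± 0.09 and UGT78D1 by 0.50 ± 0.10. A pair of genes for later steps of anthocyanin decoration, chosen after their values were seen, changed more. UF3GT, a sugar transferase gene, rose from 6.71, 6.05 and 6.34 to 10.28, 10.63 and 9.99 (15.3-fold, 3.93 ± 0.20, adjusted p = 1.28e-07). AT5MAT, an anthocyanin malonyltransferase gene, rose from 4.74, 4.17 and 3.93 to 6.63, 7.13 and 6.40 (5.43-fold, 2.44 ± 0.24, adjusted p = 2.05e-05). In all 5 list genes the lowest pollinated array was above the highest unpollinated one. All 5 had already passed, and 52.8% of all probe sets had no overlap, so this adds little to the calls. UF3GT and AT5MAT did not overlap either, and their choice with values known makes it no separate result.

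Across the wider family of UDP-glycosyltransferases, which attach sugars to hormones, pigments and defence compounds, 15 of 47 measured genes rose, 6 fell and 26 did not pass. That passing share is close to the 43.6% over all probe sets, so the family does not stand apart from the array. The median of 0.10 turned to -0.04 when array medians were subtracted, where 13 rose and 11 fell. UGT76B1 rose from 3.61, 3.29 and 3.56 to 5.61, 5.58 and 5.36 (2.03 ± 0.16, adjusted p = 4.00e-06), UGT87A2 by 1.95 ± 0.09 and UGT76E12 by 1.85 ± 0.12. The largest falls were those of UGT85A3 (-1.37 ± 0.18) and UGT74D1 (-1.30 ± 0.15). UGT74B1, an enzyme gene of glucosinolate synthesis, rose by 0.73 ± 0.12, and BCAT4, the other measured gene of the glucosinolate list (of 21), did not pass (0.92 ± 0.37, adjusted p = 0.0665), with 1 pollinated array at 6.88 and the others at 5.31 and 5.32.

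Auxin genes rose more often than they fell: 7 of 14 measured (of 50) rose and 1 fell, with 7 rises under each scaling and 5 falls once array medians were subtracted. GH3.3, whose enzyme ties auxin to amino acids, went from 4.96, 4.18 and 5.54 to 10.69, 10.63 and 10.33 with no overlap, and GH3.17 of the same class rose by 1.54 ± 0.12, while WES1 fell by 0.89 ± 0.12. The Aux/IAA genes, whose proteins repress the auxin response, moved one way where they passed. IAA31 rose from 4.21, 4.21 and 3.99 to 7.30, 7.84 and 7.21 (9.94-fold, 3.31 ± 0.22, adjusted p = 1.14e-06), IAA30 rose by 0.98 ± 0.09, IAA20 by 0.47 ± 0.10 and IAA34 by 0.33 ± 0.06. The synthesis gene YUC6 rose by 0.85 ± 0.13. HAT2, an auxin-induced homeobox gene chosen after its value was seen, rose from 7.91, 7.76 and 8.10 to 9.60, 9.56 and 9.49 (3.09-fold, 1.63 ± 0.21, adjusted p = 0.000145).

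IAA31 and HAT2 also differed between both kinds of pollen, a difference that 0.312% of all probe sets passed. The mutant pollen arrays stood at 5.54, 6.37 and 5.58 for IAA31, between the other groups, and at 7.65, 8.69 and 8.06 for HAT2, where they overlapped the unpollinated arrays. Mutant minus wild-type pollen was -1.62 ± 0.22 for IAA31 (adjusted p = 0.0124) and -1.42 ± 0.21 for HAT2 (adjusted p = 0.0193). IAA31 no longer passed when wild-type array 2 was left out (adjusted p = 0.0608), and HAT2 when any 1 wild-type array was (0.0897 to 0.118). GH3.3 differed by -0.09 ± 0.28 (adjusted p = 0.998). No other member of the auxin list passed in this comparison.

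Other hormone lists were thinly measured. In the gibberellin list 2 of 4 measured genes (of 28) fell, the receptor gene GID1A by 0.67 ± 0.13 and SLY1, an F-box gene of gibberellin response, by 0.63 ± 0.11, while GID1B (0.20 ± 0.12) and GID1C (0.00 ± 0.15) did not pass. In the jasmonate list 1 of 4 (of 34) rose and 1 fell, the transcription factor genes MYC4 (0.44 ± 0.10) and MYC3 (-0.63 ± 0.09). In the ethylene list of 27, AT1G12010 fell by 4.66 ± 0.35, from an uneven 9.44, 9.04 and 7.72 to 4.28, 3.85 and 4.09. EIN3, the central transcription factor of ethylene response, rose by 0.20 ± 0.07 (adjusted p = 0.0492). The EIN3 call was lost in 9 of 12 alternatives, among them array medians subtracted (adjusted p = 0.526) and a fit of both groups alone (0.0627). Of the salicylate and defence list 3 of 4 measured (of 29) rose, WRKY53 by 2.83 ± 0.20, PDF1.2 by 0.33 ± 0.08 and WRKY6 by 0.29 ± 0.10, and only WRKY53 passed with array medians subtracted or after quantile normalization. WRKY6 passed in 4 of 12 alternatives. The chitinase gene CHI (3.43 ± 0.19) and BSMT1, for a methyltransferase that makes methyl salicylate and methyl benzoate (2.06 ± 0.26), rose and were chosen after their values were seen.

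**Figure D3:**
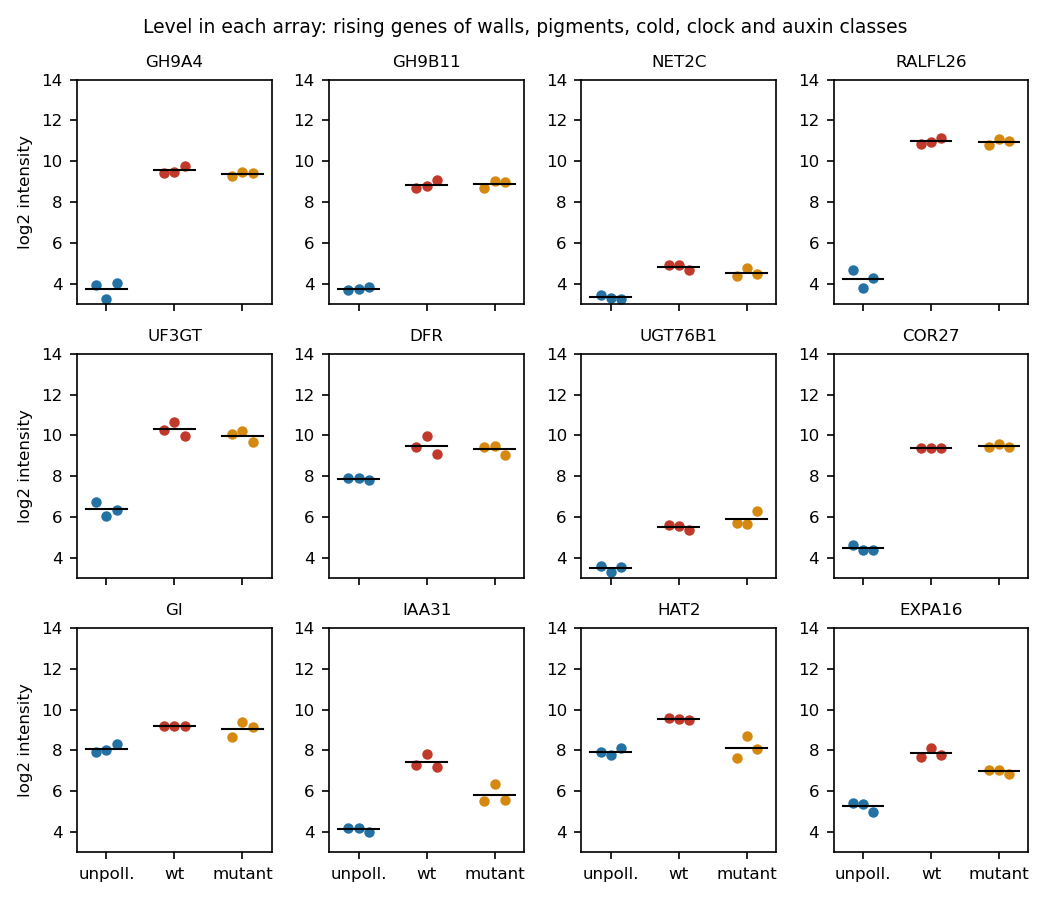
Log2 intensity (y axis) of 12 rising genes in each of the 3 arrays per group, unpollinated (blue), wild-type pollen (red) and mutant pollen (orange), with group means as bars. Groups of unpollinated and wild-type arrays do not overlap in any panel, and for HAT2 the mutant arrays, at 7.65 to 8.69, overlap the unpollinated ones. No overlap was part of the rule that ranked GH9A4 and RALFL26, and UF3GT, COR27 and HAT2 were chosen with their values seen.

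Genes of sugar supply moved in both directions. Of 13 measured sugar transport and invertase genes (of 28) 5 rose and 3 fell, with 4 and 5 once array medians were subtracted, and the median was -0.04. The plasma membrane sugar exporters SWEET11 and SWEET10 fell by 1.04 ± 0.13 and 0.78 ± 0.11, and SWEET8 and SWEET13 rose by 1.05 ± 0.21 and 0.95 ± 0.19. SWEET11 stood at 8.22, 8.15 and 7.74 without pollen and at 6.97, 6.85 and 7.18 with it, while SWEET8 stood at 7.15, 6.86 and 6.07 and then at 7.68, 7.69 and 7.87. The unpollinated arrays of SWEET8 thus spread over more than 1 log2 unit below tightly grouped pollinated ones. SWEET17 rose by 0.60 ± 0.20 (adjusted p = 0.0298), which did not pass once array medians were subtracted (0.0692), without unpollinated array 2 (0.0664) or 3 (0.091, where the difference was 0.40), and without any single wild-type array (0.0513 to 0.0979). In the SWEET family as a whole 4 of 14 rose and 3 fell, with 2 and 7 once array medians were subtracted and 4 and 5 after quantile normalization. Without single arrays 2 or 3 of the family rose and 3 to 8 fell.

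AT3G19940 and AT5G26250, loci of the sugar list with no symbol, differed between both kinds of pollen. AT3G19940 stood at 4.01, 4.08 and 4.26 without pollen, at 6.84, 7.56 and 6.68 with wild-type pollen and at 4.56, 4.98 and 4.35 with mutant pollen. AT5G26250 stood at 5.68, 5.61 and 5.25, at 7.08, 7.28 and 7.16, and at 5.64, 5.49 and 5.48. In each, the wild-type arrays were above all others, and mutant minus wild-type pollen was -2.40 ± 0.22 (adjusted p = 0.001) and -1.64 ± 0.11 (adjusted p = 0.000157).

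Starvation and photosynthesis genes were lower with pollen. Both measured genes of the carbon starvation list (of 16) fell. AKINBETA1, a subunit gene of the SnRK1 energy-sensing kinase, went from 9.23, 9.19 and 9.04 to 7.64, 7.27 and 7.06 (3.56-fold lower, -1.83 ± 0.22, adjusted p = 9.14e-05), and AT3G15450 fell by 1.2 ± 0.22. In the nuclear photosynthesis list 9 of 11 measured genes (of 60) fell and none rose, with a median of -0.49. LHCB4.2, for a light-harvesting antenna protein, stood at 12.13, 12.04 and 11.83 and then at 10.77, 10.75 and 10.75 (2.37-fold lower, -1.24 ± 0.10, adjusted p = 3.44e-06). PSAN, a photosystem I subunit gene, fell by 1.2 ± 0.14 and the photosystem II genes PSBY and PSBW by 0.67 ± 0.13 and 0.55 ± 0.07, while the ATP synthase gene ATPC1 (-0.07 ± 0.10) and LHCB4.3 (0.23 ± 0.10) did not pass. The photorespiration gene HPR, chosen after its value was seen, fell by 1.46 ± 0.09. Of all 69 measured plastid-encoded genes, a class added after the values were seen, 40 were lower and 1 higher. The largest fall was that of psbA (-1.68 ± 0.26). With array medians subtracted 48 were lower, after quantile normalization 32, and without single arrays 27 to 43.

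Metabolic genes that rose, chosen after their values were seen, included THIC of thiamine synthesis (1.94 ± 0.11), PPDK, pyruvate orthophosphate dikinase (1.94 ± 0.21), and APL4, a large subunit gene of the enzyme that supplies starch synthesis (1.54 ± 0.12).

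Of 13 measured hypoxia-responsive genes (of 32) 5 fell, 1 rose and 7 did not pass, a share called close to that over all probe sets, and 8 fell under both other scalings. AT1G33055 went from 8.75, 8.58 and 8.50 to 4.60, 4.27 and 4.09 (19.6-fold lower, -4.29 ± 0.17, adjusted p = 1.14e-08). AT4G27450 went from 9.73, 9.54 and 9.20 to 6.0, 5.20 and 5.11 (16.6-fold lower, -4.05 ± 0.36, adjusted p = 1.15e-05). PDC2, for pyruvate decarboxylase, went the other way, from 6.38, 7.13 and 6.85 to 9.14, 9.23 and 9.06 (5.12-fold higher, 2.36 ± 0.16, adjusted p = 1.01e-06). All 3 pollinated arrays lay below the unpollinated ones in the first pair of genes and above them in PDC2.

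The remaining falls of the hypoxia list were smaller. AT3G10040 fell by 1.28 ± 0.34, with pollinated arrays at 6.67, 5.35 and 5.60, and AT3G03270 fell by 1.12 ± 0.08. AT4G10270 fell by 0.92 ± 0.31 (adjusted p = 0.0373) with overlapping groups, since wild-type array 1, at 8.85, lay above unpollinated arrays 1 and 3, at 8.65 and 8.80. It did not pass when wild-type array 2 (adjusted p = 0.141), wild-type array 3 (0.131) or unpollinated array 2 (0.132) was left out, in a fit of both groups alone (0.064) and with a robust trend prior (0.0755). The calmodulin-like gene CML38 did not pass (-1.26 ± 0.53, adjusted p = 0.0762), with unpollinated arrays at 6.03, 8.61 and 7.28, and passed without unpollinated array 1 (-1.90, adjusted p = 0.00421), with a replicate block (0.0397), with array medians subtracted (0.0435) and after quantile normalization (0.0465). Without single arrays 4 to 7 genes of the list fell.

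Heat shock and chaperone genes fell steeply from an uneven baseline. Of 8 measured genes of the heat shock list (of 28) 5 fell and 1 rose. AT5G48570, annotated as the peptidyl-prolyl isomerase FKBP65 or ROF2, stood at 5.34, 9.59 and 8.38 in the unpollinated arrays and at 4.67, 4.36 and 4.84 with pollen. AT2G20560 stood at 6.63, 10.05 and 8.88 and then at 4.17, 4.42 and 4.39. Fes1A, a cytosolic chaperone partner of HSP70, stood at 8.19, 10.61 and 9.49 and then at 7.66, 7.69 and 7.45. In all 3 genes unpollinated array 2 was the highest and array 1 the lowest, while the pollinated arrays agreed closely and lay below.

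The differences were -3.15 ± 0.80 for AT5G48570 (adjusted p = 0.00944), -4.19 ± 0.63 for AT2G20560 (adjusted p = 0.000414) and -1.83 ± 0.44 for Fes1A (adjusted p = 0.00724). Their unpollinated SDs of 2.19, 1.74 and 1.21 were far above the pollinated ones of 0.244, 0.137 and 0.131, and the SE pools all groups. AT5G51440 fell by 3.18 ± 0.61 in the same array order, from 5.1, 8.43 and 6.95 to 3.54, 3.74 and 3.67. AT5G37670 fell by 0.71 ± 0.15 and AT1G53540 rose by 0.73 ± 0.15. Hop3, a co-chaperone gene among the falls ranked 11 to 30, stood at 5.63, 8.77 and 7.46 and then at 4.49, 4.61 and 4.54 (-2.74 ± 0.58). HSA32 (-1.77 ± 0.20) and SGT1A (-1.62 ± 0.34), both chosen after their values were seen, fell with the same order of unpollinated arrays. Without any single array 5 or 6 genes of the heat shock list fell. What set the unpollinated arrays apart was not tested.

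**Figure D4:**
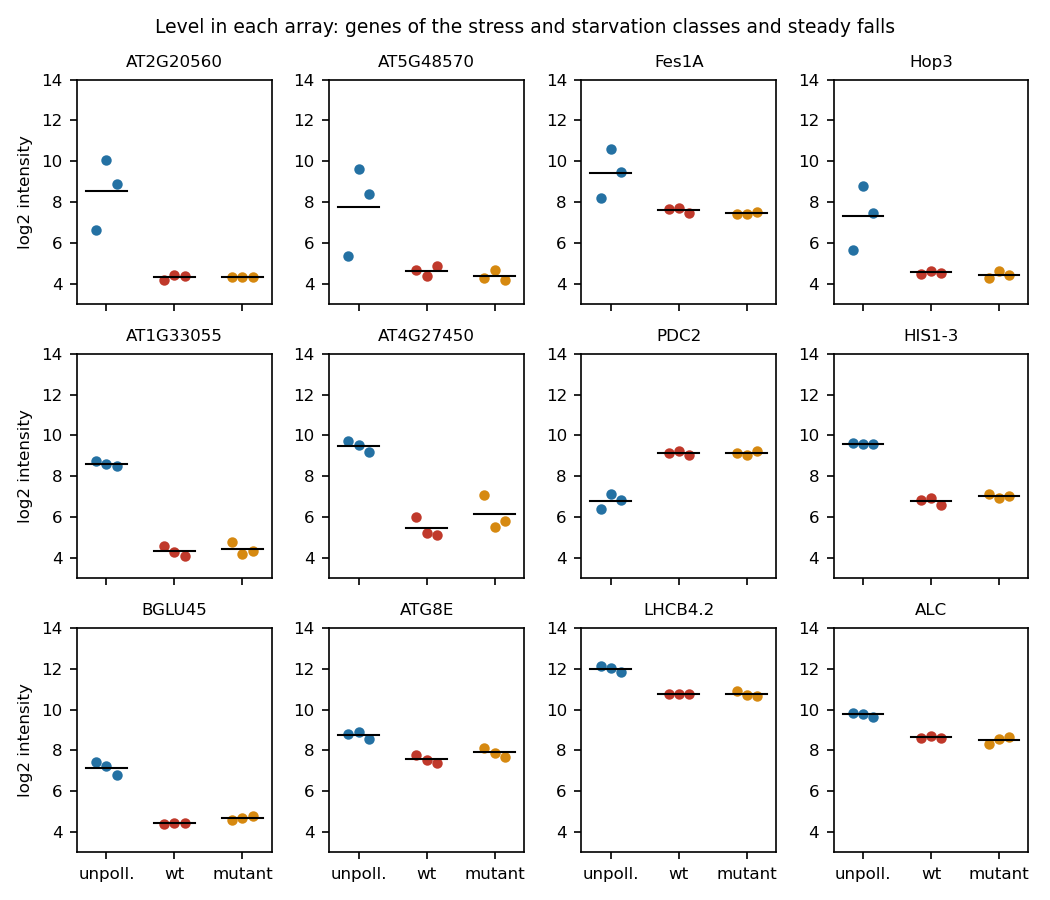
Log2 intensity (y axis) of 12 genes, PDC2 rising and the others falling, in each of the 3 arrays per group, unpollinated (blue), wild-type pollen (red) and mutant pollen (orange), with group means as bars. The unpollinated arrays spread by over 2 log2 units for the chaperone genes in the top row and agree closely for AT1G33055 and HIS1-3.

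Cold-regulated genes split, and the 1 measured clock gene rose. COR27, chosen after its value was seen, stood at 4.64, 4.38 and 4.39 without pollen and at 9.37, 9.37 and 9.36 with it (29.8-fold, 4.90 ± 0.09, adjusted p = 4.27e-11). COR15A and COR15B, adjacent genes for proteins that protect chloroplast membranes in the cold, rose by 1.80 ± 0.24 and 2.51 ± 0.11. Of these, COR15B was outside the dehydration and cold list and was also chosen after its value was seen. COR47, a dehydrin gene of that list, fell by 1.33 ± 0.17. GI, a clock gene whose transcript cycles over the day, was the only measured member of 26 and stood at 7.93, 8.03 and 8.30 and then at 9.21, 9.18 and 9.22 (2.17-fold, 1.12 ± 0.16, adjusted p = 0.000318). The pollinated arrays of both genes lay close together and above all unpollinated ones. Since the time of day of the unpollinated collections was not given, it cannot be told apart from pollination here.

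Of 7 measured ATG8 genes, whose small proteins coat forming autophagosomes, 5 fell and none rose (median -0.55), a class chosen after the values were seen, with 5 or 6 falls and no rise under each scaling. ATG8E stood at 8.79, 8.90 and 8.57 and then at 7.78, 7.54 and 7.39 (2.27-fold lower, -1.18 ± 0.14, adjusted p = 7.60e-05), and ATG8C, ATG8F, ATG8B and ATG8G fell by 0.88 ± 0.12, 0.84 ± 0.09, 0.55 ± 0.09 and 0.52 ± 0.07. Of 10 measured VPS genes, most of them subunits of the machinery that sorts membrane proteins into multivesicular bodies, 6 fell and none rose under each scaling, led by VPS2.1 (-0.63 ± 0.12), VPS2.2 (-0.45 ± 0.09) and VPS22 (-0.42 ± 0.10). Without single arrays 4 to 7 of them fell.

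Of 12 measured ubiquitin-specific proteases (UBP), which remove ubiquitin, 5 rose and 1 fell, a passing share not far from the 43.6% over all probe sets. UBP22 rose by 0.66 ± 0.07 and UBP24 by 0.53 ± 0.08, against UBP15 at -0.49 ± 0.12. Under both other scalings 4 rose and 1 fell, and without single arrays 4 to 6 rose. Of 8 measured OTP genes, which encode proteins that process RNA in chloroplasts and mitochondria and were grouped after the values were seen, 5 rose and none fell (median 0.48), with 4 and 0 after array medians were subtracted and 3 and 1 after quantile normalization. OTP81 rose by 1.54 ± 0.13 and OTP87 by 0.58 ± 0.10. The tetraspanins, membrane proteins that organise surface domains, had 4 rises and 6 falls among 15 measured genes, with 8 and 7 falls under the other scalings. TET13 rose from 3.86, 3.80 and 3.72 to 6.36, 6.56 and 6.90 (7.03-fold, 2.81 ± 0.13, adjusted p = 6.49e-08) and TET9 by 0.87 ± 0.12, and TET8 and TET3 fell by 0.70 ± 0.18 and 0.57 ± 0.10.

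Of 6 measured carpel and style regulators (of 23) 1 rose and 1 fell, with 2 falls once array medians were subtracted and 3 after quantile normalization. SPT, needed for the transmitting tract, rose by 0.71 ± 0.09, and its close relative ALC, which shapes the opening zone of the fruit, stood at 9.83, 9.79 and 9.66 and then at 8.61, 8.70 and 8.63 (2.16-fold lower, -1.11 ± 0.10, adjusted p = 9.45e-06). Of the 4 NGA genes of style development none passed, with NGA3 at -0.25 ± 0.09 (adjusted p = 0.0508), which passed with array medians subtracted (0.0076), after quantile normalization (0.00171), with dim probe sets left out (0.0474) and without unpollinated array 3 (0.0201). Chosen after their values were seen, CES, a transcription factor gene of the transmitting tract, fell by 1.01 ± 0.25, the organ growth gene JAG by 0.96 ± 0.16, ADPG1, a polygalacturonase gene of fruit opening, by 1.53 ± 0.10, and STOMAGEN, for a peptide that promotes stomata, by 0.97 ± 0.10.

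Of 13 measured female gametophyte genes (of 24) 3 fell and 2 rose, a share close to that over all probe sets. The median of 0.06 was -0.08 under both other scalings, where 5 fell, and without single arrays 3 to 6 fell and 1 to 3 rose. EC1.2, a secreted egg cell protein gene, fell by 0.78 ± 0.17, and the receptor kinase gene FER did not pass (0.16 ± 0.09). EC1.5 of the same list, added with its value known, did not pass either (0.22 ± 0.27, adjusted p = 0.547). VDD, a regulator of female gametophyte cells, and GLC, a gene needed for fertilisation of the central cell, were chosen after their values were seen and fell by 1.19 ± 0.14 and 1.43 ± 0.16, and a second probe set of GLC fell by 1.28 ± 0.22.

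Among the other falls ranked 11 to 30, HIS1-3, a linker histone gene induced by drought, stood at 9.61, 9.58 and 9.56 and then at 6.85, 6.95 and 6.57 (6.93-fold lower, -2.79 ± 0.10, adjusted p = 6.87e-09). PAP85 stood at 8.10, 7.25 and 6.44 and then at 3.74, 3.66 and 3.92 (11.2-fold lower, -3.49 ± 0.32), and ORA47, an AP2/ERF transcription factor gene, at 7.52, 9.24 and 8.64 and then at 4.42, 5.76 and 6.61 (-2.87 ± 0.75, adjusted p = 0.0106). HIS1-3 was nearly level within each group, while the other genes spread by over 1 log2 unit among unpollinated arrays and ORA47 by more than that among pollinated ones. The 20 falls ran from -3.50 to -2.59, and 15 of them were loci with no symbol. Annotated falls below that size, chosen after their values were seen, included the subtilase gene SBT5.4 (-2.45 ± 0.13), UPB1, a regulator of peroxidases known from roots (-1.86 ± 0.30), the copper chaperone gene CCS (-1.79 ± 0.16), the calmodulin-like gene CML41 (-1.84 ± 0.20) and HYH, a light-signalling factor gene (-1.48 ± 0.11).

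**Figure D5:**
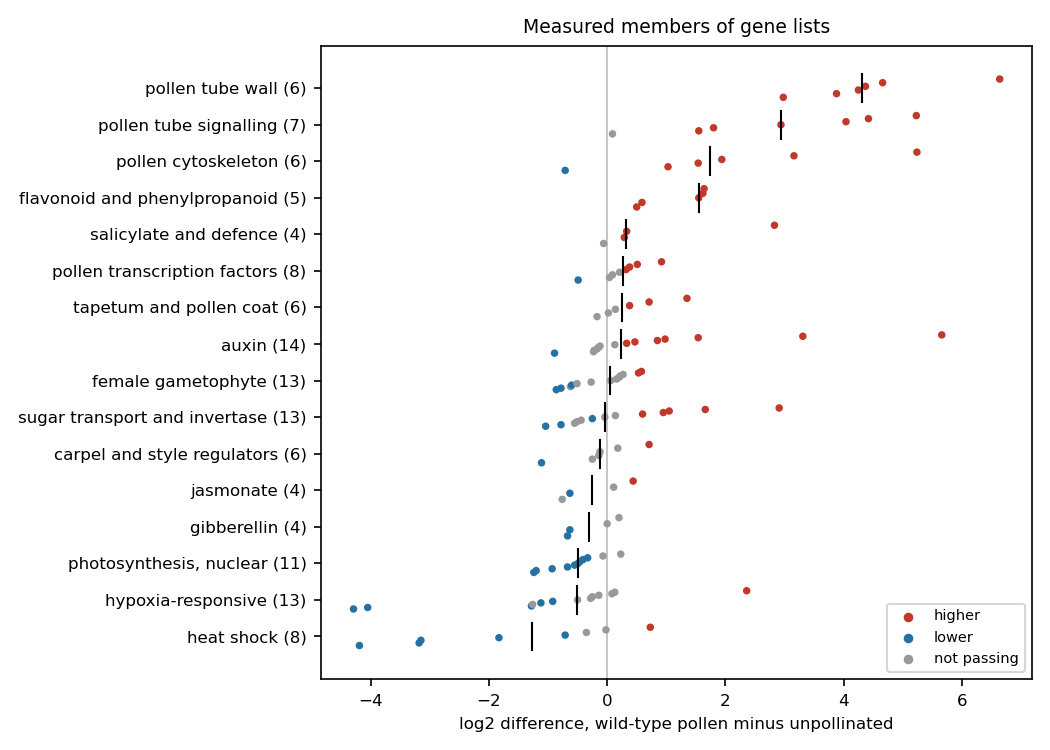
Log2 difference (wild-type pollen minus unpollinated, x axis) of each measured gene in the gene lists with at least 4 measured members, with the number measured in brackets, the call in colour and the list median as a black bar. Pollen tube and flavonoid lists lie to the right of 0, except for ACT11 of the cytoskeleton list (-0.71). The heat shock, hypoxia and photosynthesis lists lie mostly to the left.

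The remaining families held calls in both directions. Of the pollen transcription factor list 4 of 8 measured rose and 1 fell, with 3 rises once array medians were subtracted and 2 after quantile normalization. Of 26 genes with the stem CYP 3 rose and 4 fell, or 2 and 10 with array medians subtracted, with the cytochrome P450 genes CYP71B23 at 2.60 ± 0.13 and CYP79A2 at -1.45 ± 0.13. Of 14 BZIP transcription factor genes 2 rose and 3 fell, BZIP61 by 1.07 ± 0.28 and bZIP58 by -1.29 ± 0.12, with 1 and 8 once array medians were subtracted and 1 and 5 after quantile normalization. Of 11 tau-class glutathione transferase genes (GSTU) 4 rose and 4 fell, GSTU16 by 0.73 ± 0.15 against GSTU23 at -1.12 ± 0.07. Of 15 IQD genes for calmodulin-binding proteins 1 rose and 4 fell, IQD16 by -0.53 ± 0.12, with 0 and 8 once array medians were subtracted and 1 and 7 after quantile normalization.

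Lists with 6 or fewer measured members gave these counts. In the dehydration and cold list 1 of 2 (of 18) rose and 1 fell, as given above. In the cell cycle list 2 of 3 (of 31) rose, by at most 0.37, and none rose once array medians were subtracted. None of 3 genes for protein folding in the endoplasmic reticulum (of 11), none of 3 senescence genes (of 12) and neither direction for the 1 measured gene of the touch and wound list (of 13) passed. The 1 measured cuticle gene (of 22) fell by 0.42. No member of the cellulose synthase list or of the petal and stamen list was measured. Over all 30 lists 59 of 151 measured genes rose and 37 fell, and over the 20 families 90 of 362 rose and 69 fell. The family totals lie close to the shares over all probe sets, 23.4% higher and 20.2% lower. The lists were chosen with earlier results of these data known, so their totals are not a fair comparison with those shares.

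Some large rises sat beside each other on the chromosomes. Of 167 genes that rose by at least 2 and had a measured protein-coding neighbour, 27 (16.2%) had a neighbour that rose by at least 1, against 5.94% of all 8828 measured genes with such a neighbour. For falls of at least 1 the shares were 7.76% of 245 genes and 3.48%. Beside the pairs named above, AT3G26860 (6.55), AT3G26870 (2.65) and AT3G26880 (4.3) were a run of 3, as were AT4G33970, AT4G33980 and AT4G33985 (2.98, 3.88 and 1.60). These shares are descriptions, since neighbours can be copies of each other and probes may read both.

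A smaller share of pseudogenes than of protein-coding genes passed. Of 989 measured pseudogenes 52 rose and 83 fell, 13.7%, and 1 rose by at least 2, against 43.8% of 12293 protein-coding genes, of which 225 rose by at least 2. The 9310 probe sets with no matched gene passed in 46.7% of cases, with 208 rises of at least 2, so 47.9% of the 434 large rises could not be named.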

How the data were processed

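The deposited table holds 1 intensity per probe set and array, made with RMA in Affymetrix Expression Console and Partek, per the submitters' processing notes, which give no versions. RMA corrects background, normalizes between arrays and summarises probes, so a shift common to most transcripts is largely removed before deposit. The deposited intensities were linear (6.4 to 27175.1), and log2 was taken here. Of 22810 probe sets, 64 control probe sets were left out. Limma 3.58.1 (lmFit and eBayes, R 4.3.3) was fitted to all 9 arrays with 1 mean per group, and p-values were adjusted by Benjamini-Hochberg over 22746 probe sets. The fit was also run on simulated data with few changed probe sets and the same spread in every group. That run does not cover the unequal spread of the unpollinated arrays. The 3 samples per group are replicates as labelled, so p-values measure the spread between these collections. The number of arrays limits the precision.

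Platform annotation gave 1 gene for 13513 probe sets, several for 503 and none for 8730. Symbols came from RefSeq's gene table (TAIR10.1), and the brightest probe set stood for a gene with several (144 genes). Text genes were ranks 11 to 30 in each direction, and of each list or family up to 6 passing and 2 other members by size. Genes said to be chosen after their values were seen fall outside this rule. Members, lists and families were chosen with earlier results of these data known. Families are symbol stems shared by at least 10 measured genes. Protein families and sequences were not analysed here. Some families counted in the totals are not reported here. Alternatives were other scalings, a fit of both groups alone, a robust trend prior, dim probe sets left out, a replicate block, the mean of a gene's probe sets (for lists and families) and each of the 6 compared arrays left out. Tables were handled with Python 3.11.15, pandas 2.3.3 and numpy 2.4.6, and figures drawn with matplotlib 3.10.9.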

Additional observations from a re-analysis of the deposited data

Results flagged for a closer look

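For 6 of the genes named here that rose with wild-type pollen, mutant and wild-type pollen gave different levels in the limma fit. Over the whole array 71 probe sets (0.312%) passed this difference, 65 of them lower with mutant pollen, and most are not named here. Both contrasts use the wild-type arrays, and the alternatives left out no mutant array. Mutant minus wild-type pollen was -2.40 ± 0.22 (SE) for AT3G19940 (adjusted p = 0.001, 0.000607 to 0.00565 over the alternatives) and -1.64 ± 0.11 for AT5G26250 (adjusted p = 0.000157, 7.58e-05 to 0.00204). It was -2.11 ± 0.13 (adjusted p = 6.07e-05, 1.5e-05 to 0.000864) for AT3G26870. It was -1.62 for IAA31 (adjusted p = 0.0124, 0.00179 to 0.0608), -1.42 for HAT2 (0.0193, 0.0159 to 0.118) and -0.88 for EXPA16 (0.0341, 0.0108 to 0.163). The EXPA16 difference did not pass without unpollinated array 2 (adjusted p = 0.0528) or without wild-type array 1 (0.062), 2 (0.163) or 3 (0.117). Groups of 3 arrays are too small for a test of single outlying arrays, and none was run.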

How the results depend on the processing

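The counts of passing probe sets depended on the scaling more than on any other choice. With array medians subtracted, 7579 probe sets were lower in place of 4596, and 123 family members in place of 69. All other totals over probe sets, lists and families stayed within 1.5 times under the alternatives run. Without single arrays, 4464 to 5217 probe sets were higher and 3527 to 4503 lower, against 5328 and 4596. At differences of at least 1 the ranges were 1008 to 1048 higher and 583 to 686 lower. List members gave 52 to 56 rises and 35 to 45 falls, and family members 78 to 90 and 62 to 77. No passing call of a named gene reversed. Of genes that did not pass, GID1C ran from -0.11 to 0.07, ATPC1 from -0.15 to 0.01 and RALFL34 from -0.11 to 0.03 without single arrays. Of 180 named genes followed through the alternatives, 166 passed, 160 of them in all 12 alternatives. CHX19, EIN3, PDF1.2, WRKY6, SWEET17 and AT4G10270 lost the call in some. The cause was not tested.

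Same-numbered unpollinated and wild-type arrays did not deviate together (r = -0.01, 0.09 and 0.15 over probe sets), so the numbers were not taken as pairs. A replicate block gave 5224 higher and 4488 lower. The protein family alternative was not run, since no protein table was used. Probe sets were not tested for detection, so differences among dim ones are least certain, and 3 arrays per group limit small differences.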
